A study of Homo sapiens with 10 samples.

Results

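PANC-1, an established human pancreatic ductal adenocarcinoma line, was treated for 24 h with 1 µM imidazole ketone erastin (IKE) or with 0.1% DMSO, the solvent, and the cells still alive at the end were compared. The comparison rests on 6 RNA libraries, 4 from IKE-treated and 2 from DMSO-treated cells. A gene was taken as expressed where its deposited FPKM value (fragments scaled to transcript length and library size) was at least 1 in at least 2 of those 6 libraries. That rule kept 11833 of the 20289 genes in the table. The second-highest of the 6 values lay under 1.1 FPKM for 112 genes just inside the rule and from 0.9 to 1 FPKM for 133 just outside it, and 3298 genes were listed at 0 in all 6. The wider study asks which genes regulate ferroptosis in pancreatic cancer, and it holds a second line, CFPAC-1, with 2 libraries after 24 h with 10 µM IKE and 2 with DMSO. The libraries are labelled as bioreplicates with no word on whether each came from its own culture, and the p-values therefore speak only to the spread among these libraries. Dead cells and debris were removed before RNA was taken, so a change of RNA within cells and a change in which cells were left alive cannot be told apart, nor can fewer cells of a kind and less RNA per cell.

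IKE, an analogue of erastin, inhibits system xc-. That exchanger, made of SLC7A11 and SLC3A2, brings cystine into the cell and carries glutamate out. Cysteine made from that cystine is needed for glutathione, the cofactor with which GPX4 reduces lipid peroxides. Cells short of it can die by ferroptosis, a death marked by peroxidised membrane lipids and dependent on iron. A shortage of amino acids is sensed by the kinase GCN2, which raises translation of the transcription factor ATF4, and oxidants and electrophiles stabilise the transcription factor NRF2 by acting on its inhibitor KEAP1. ATF4 and NRF2 both act on SLC7A11.

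Each library summed to between 432300 and 472665 FPKM, with 11604 to 11678 genes at 1 FPKM or more. The depth is unknown because the table holds no counts. The epithelial keratins KRT8 (2621 to 3095 FPKM), KRT18 (1465 to 1803 FPKM) and KRT19 (721 to 891 FPKM) were high in all 6 libraries, and KRT7 stood at 4.39 to 6.15 FPKM. CD3E, HBB, TEK, CLDN5, INS, GCG and AMY2A were listed at 0 throughout and PTPRC at no more than 0.03 FPKM, while COL1A1 reached 17.9 to 24.9 FPKM and the lysosomal gene CD68 24.0 to 32.5 FPKM. No gene on the lists of ductal, leukocyte, endothelial, fibroblast or acinar and islet markers was called. CD68, on the leukocyte list, was higher in every IKE library than in both DMSO libraries (0.23 on the log2 scale, limma adjusted p = 0.179). On the first principal component of the expressed genes (35.5% of the variance) the DMSO libraries lay at -15.69 and -11.18 and the IKE libraries between 3.33 and 11.01. The second component (22.7%) set IKE replicate 2 apart at -16.26, and IKE replicate 3 had the highest share of mitochondrially encoded RNA, at 5.27% of all FPKM against 2.80% at the lowest.

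Survivors of IKE differed from DMSO-treated cells in few genes and mostly by small amounts. Of the 11833 expressed genes, 158 rose (1.34%) and 153 fell (1.29%) at a limma adjusted p under 0.05, together 2.63%. On the log2(FPKM + 1) scale, used for all changes given here, 12 of the rises reached 2-fold and 0 of the falls did. At an unadjusted p under 0.05, 1084 genes were higher and 1156 lower. The median change was 0.47 over the risen genes, -0.46 over the fallen genes and -0.005 over all expressed genes. Adding 1 understates the change of genes with low FPKM. In 1550 genes (13.1%) every IKE library lay above both DMSO libraries, and in 1666 (14.1%) every one lay below, including all 158 risen and all 153 fallen genes. Counts on the gene lists below are to be read against these shares of all expressed genes.

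The rises were steadier than the falls when libraries were left out. In each of 6 fits, each without 1 PANC-1 library, 29 genes stayed risen (0.245% of expressed genes), whereas HGF was the only gene that stayed fallen (0.00845%). Leaving out DMSO replicate 1 left 35 risen and 5 fallen genes, and leaving out DMSO replicate 2 left 50 and 20, with the lone DMSO library assumed to vary like the other groups. Without IKE replicate 1 the counts were 124 and 84, without replicate 2 206 and 296, without replicate 3 171 and 146, and without replicate 4 98 and 77. The fit shares its estimate of spread with the CFPAC-1 libraries, and a fit of the PANC-1 libraries alone called 26 risen and 5 fallen genes. Below, a gene is said to have held where it stayed called in all 6 of these fits.

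**Figure D1:**
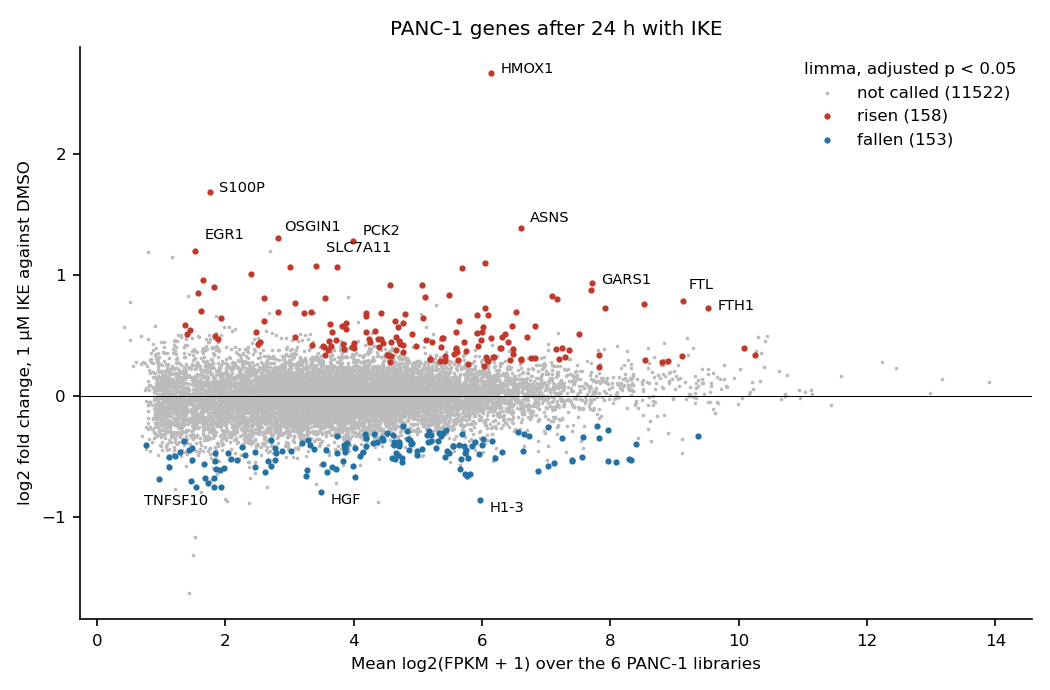
Change with IKE of every gene expressed in PANC-1 (vertical axis, log2 scale, IKE minus DMSO) against its mean level over the 6 libraries (horizontal axis, mean log2(FPKM + 1)). Each point is a gene: 158 risen genes are red, 153 fallen genes blue and 11522 uncalled genes grey. The largest rises reach further from 0 than any called fall.

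Of 14 expressed amino acid carriers 7 rose with IKE, among them the target of the drug, and 7 were not called. SLC7A11, the cystine and glutamate exchanger (chr4:138164097-138242349, minus strand, by GENCODE 29 on GRCh38), stood at 5.28 and 5.68 FPKM in the DMSO libraries and at 15.39, 9.89, 10.78 and 15.30 FPKM in IKE replicates 1 to 4. All 4 IKE values lay above both DMSO values, with replicates 1 and 4 the highest, and the change was 1.07 ± 0.15 (log2, SE; limma adjusted p = 0.00538). SLC3A2, its partner chain, rose from 83.79 and 80.05 FPKM to 128.97, 119.36, 102.99 and 110.66 FPKM, a change of 0.49 ± 0.08 (limma adjusted p = 0.0142). Both lost their call when a DMSO library was left out. The limma adjusted p of SLC7A11 was 0.0813 without DMSO replicate 1, and SLC3A2 was lost without either DMSO library, each left out on its own, with a highest limma adjusted p of 0.122. SLC1A4, which carries serine, alanine and threonine, stood at 3.53 and 4.29 FPKM with DMSO and at 8.86, 10.29, 9.21 and 8.74 FPKM with IKE, without overlap. Its change of 1.07 ± 0.11 held (limma adjusted p = 0.000956), as did that of SLC6A9, the glycine carrier, at 0.81. The median change over the 14 carriers was 0.35, and those not called included SLC38A2 at -0.01 and SLC7A6 at -0.05, both neutral or basic amino acid carriers chosen after their values were seen. Without DMSO replicate 1 the count of risen carriers was 2 and without DMSO replicate 2 it was 3.

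Enzymes that make serine, asparagine and proline were among the steadiest rises. ASNS, asparagine synthetase (chr7:97852118-97872542, minus strand), went from 47.30 and 52.84 FPKM to 145.53, 131.14, 115.80 and 139.84 FPKM, more than any spread within a group, with a change of 1.39 ± 0.09 (limma adjusted p = 6.64e-05). PHGDH, the first enzyme of serine synthesis, went from 31.45 and 29.56 FPKM to 65.25, 71.10, 58.66 and 63.78 FPKM (1.06 ± 0.08, limma adjusted p = 0.000182). PSAT1, the next enzyme of that route, went from 38.88 and 38.79 FPKM to 95.29, 77.07, 77.53 and 89.22 FPKM (1.1 ± 0.09, limma adjusted p = 0.000205). In all of these the lowest IKE library was far above the higher DMSO library, and all held. PCK2, the mitochondrial enzyme that makes phosphoenolpyruvate from oxaloacetate, held at 1.28, from 7.74 and 7.84 FPKM to between 17 and 22.23 FPKM. MTHFD2 (0.39), a mitochondrial folate enzyme, GPT2 (0.62), an alanine aminotransferase, and PYCR1 (0.58), the last step of proline synthesis, rose without holding: MTHFD2 was lost without either DMSO library, GPT2 and PYCR1 without DMSO replicate 2, with highest limma adjusted p-values of 0.199, 0.0664 and 0.0735. ALDH1L2 (0.51) was lost in each of the 6 fits. With 1 DMSO value under 1 FPKM, it met the rule for expressed genes only with its IKE libraries. Of the 12 expressed serine and folate enzymes 4 rose and 0 fell (median 0.19), and 2 rose without either DMSO library. Of the 13 expressed asparagine, proline and aspartate enzymes 6 rose and 0 fell (median 0.20), and 4 did so without either DMSO library.

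The genes for cytosolic aminoacyl tRNA synthetases, which join amino acids to their tRNAs, rose together, while those for the mitochondrial enzymes were not called. GARS1, for glycine, stood at 137.05 and 138.94 FPKM with DMSO and at 257.13, 251.19, 238.78 and 270.67 FPKM with IKE, a change of 0.88 ± 0.06 (limma adjusted p = 6.64e-05). WARS1 (0.67), for tryptophan, YARS1 (0.57), for tyrosine, and SARS1 (0.53), for serine, also rose and held. Of 20 expressed cytosolic synthetases 11 rose and 0 fell, with a median change of 0.31, and 14 had every IKE library above both DMSO libraries. The shares over all expressed genes were 1.34% risen and 13.1% with every IKE library above. Without DMSO replicate 1, 6 were called. Of 17 expressed mitochondrial synthetases 0 rose and 0 fell in limma, 0 passed an unadjusted p of 0.05, the median change was -0.03, and in 0 of them did every IKE library lie above both DMSO libraries. Glycyl-tRNA synthetase, GARS1, serves both compartments and was counted with the cytosolic enzymes.

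The transcription factor ATF4 itself was not called. Its values were 99.71 and 98.77 FPKM with DMSO and 118.19, 117.62, 105.46 and 123.12 FPKM with IKE, all above DMSO, with a change of 0.22 (95% interval 0.08 to 0.36, limma adjusted p = 0.0951). Its main control is at translation, which RNA does not show. ATF3, a related factor, went from 2.71 in both DMSO libraries to 11.39, 5.68, 4.93 and 9.60 FPKM, a change of 1.19 whose 95% interval ran from 0.58 to 1.81 and whose limma adjusted p was 0.0509. Of the genes named here ATF3 had the highest SE, 0.28. DDIT3, which encodes CHOP, stood at 17.89 and 20.59 FPKM with DMSO and 22.80 to 27.07 FPKM with IKE (0.40, limma adjusted p = 0.0617), and CHAC1, which breaks down glutathione, at 3.33 and 4.82 against 4.52 to 6.50 FPKM, with overlap (0.38, limma adjusted p = 0.198). PPP1R15A (0.81), the phosphatase subunit that reverses the stress arrest of translation, and GDF15 (0.73), a stress-induced secreted factor, rose and held. TRIB3 (0.69), a pseudokinase that restrains ATF4, rose but was lost without DMSO replicate 1 (limma adjusted p 0.0781), and STC2 (0.53), a secreted glycoprotein, was lost without either DMSO library (highest limma adjusted p 0.0793). DDIT4, an inhibitor of mTORC1, fell from 31.71 and 29.47 FPKM to 21.92, 26.52, 19.15 and 19.98 FPKM (-0.47, limma adjusted p = 0.0455), and kept its call only without IKE replicate 2 among the 6 fits (highest limma adjusted p 0.315). Of the 22 expressed genes on this list 7 rose and 1 fell (median 0.39), with 3 risen without DMSO replicate 1 and 4 without DMSO replicate 2.

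**Figure D2:**
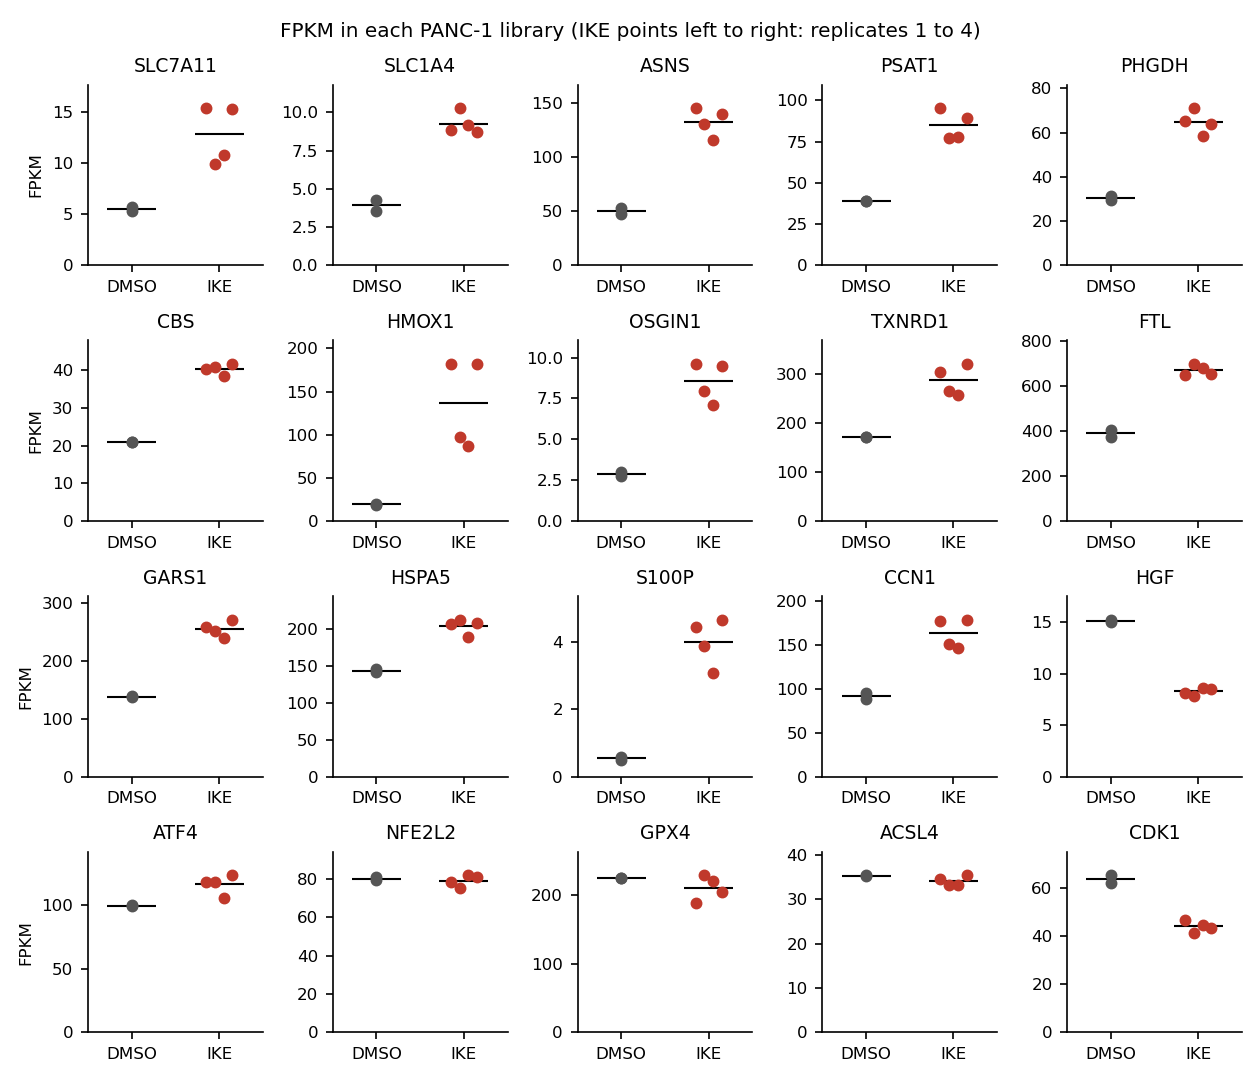
FPKM of 20 genes in each PANC-1 library; in each panel the points are libraries (2 DMSO, 4 IKE), the bars are group means and the vertical axis starts at 0. The IKE points of ASNS, PHGDH, GARS1 and FTL lie close together and above the DMSO points, those of HMOX1 and SLC7A11 spread, and those of NFE2L2 and ACSL4 overlap DMSO.

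ATF4 binds the letters TGATGNAA as a dimer with a C/EBP protein, and these letters were looked for on both strands of the RefSeq promoter windows of GRCh38.p14, which run from 250 bases before to 50 after a start site. A gene with several windows counted once. The letters were held by 16 of the 131 risen genes with a window (12.2%), by 5 of 123 fallen genes (4.07%), by 2.64% of the 9594 expressed genes with one and by 4.46% of all 27305 genes in the table. Promoters of HMOX1, FTH1, CCN1 and YARS1 were not looked at. In the 250 bases before the start, 9 risen genes held the letters, as did all 5 fallen genes. The share over all expressed genes in those 250 bases alone was not counted. The shares above therefore do not measure an excess before the start. Sites of the fallen genes are not printed, and all 9 risen genes are shown so that the sites can be read against each other. Each is a run of 30 bases on the gene's strand, 5′ to 3′, with the match in capitals; TTNCATCA is the same element on the opposite strand. A match describes these letters and is not a measured site. By GENCODE 29, which can place a start further upstream than RefSeq, all 30 bases shown lie in an exon of some transcript for ASNS, S100P, GARS1, IARS1, AARS1, GOT1 and BCAT1, 13 do for SLC1A5 and 0 for HERPUD1.
ASNS, chr7:97872458-97872487, minus strand, 68 bases before the start: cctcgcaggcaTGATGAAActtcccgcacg
S100P, chr4:6693744-6693773, plus strand, 123 bases before: acaacgatgcaTTTCATCAgaactgagcac
GARS1, chr7:30594834-30594863, plus strand, 33 bases before: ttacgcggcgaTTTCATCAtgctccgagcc
IARS1, chr9:92293698-92293727, minus strand, 13 bases before: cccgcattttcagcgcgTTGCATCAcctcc
AARS1, chr16:70289675-70289704, minus strand, 187 bases before: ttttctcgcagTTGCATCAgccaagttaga
SLC1A5, chr19:46784893-46784922, minus strand, 97 bases before: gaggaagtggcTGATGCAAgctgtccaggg
GOT1, chr10:99430804-99430833, minus strand, 198 bases before: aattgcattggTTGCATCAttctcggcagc
BCAT1, chr12:24949131-24949160, minus strand, 48 bases before: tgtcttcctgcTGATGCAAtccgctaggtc
HERPUD1, chr16:56931955-56931984, plus strand, 176 bases before: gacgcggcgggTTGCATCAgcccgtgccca
Of these, 3 encode cytosolic synthetases (GARS1, IARS1 and AARS1), 3 handle amino acids (ASNS makes asparagine, GOT1 and BCAT1 are aminotransferases) and SLC1A5 is a neutral amino acid carrier. ASNS, S100P and GARS1 held in all 6 fits.

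S100P, a small calcium-binding protein often made by pancreatic cancers, rose from a low level. It stood at 0.51 and 0.59 FPKM with DMSO and at 4.44, 3.88, 3.08 and 4.67 FPKM with IKE, all above DMSO. Both DMSO values lay under 1 FPKM, so S100P counted as expressed only through its IKE libraries, the group where it is high. The change on the log2(FPKM + 1) scale was 1.68 ± 0.18 and held (limma adjusted p = 0.00126). The ratio of its group means in FPKM was 7.30, close to the 7.01 of HMOX1, which is expressed at a far higher level. Of the 10 expressed S100 genes S100P was the only one called.

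Cystathionine beta-synthase led the transsulfuration genes, which make cysteine from methionine. CBS rose from 20.84 and 20.90 FPKM to 40.41, 40.78, 38.50 and 41.74 FPKM, tight in both groups, with a change of 0.92 ± 0.07 that held (limma adjusted p = 0.000182). CTH, the next enzyme, which releases cysteine, changed by 0.47 and was not called (limma adjusted p = 0.234). MAT2A, which makes S-adenosylmethionine, fell from 288.02 and 281.37 FPKM to 221.31, 236.10, 246.42 and 230.53 FPKM (-0.29, limma adjusted p = 0.0238), and was lost without either DMSO library and without IKE replicates 1 or 4 (highest limma adjusted p 0.229). The other 7 of the 9 expressed genes were not called, and the median of the list was -0.03.

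Both subunits of glutamate-cysteine ligase, the first step of glutathione synthesis, rose. GCLM, the modifier subunit, stood at 15.40 and 13.68 FPKM with DMSO and at 35.46, 24.70, 22.24 and 32.67 FPKM with IKE (0.92 ± 0.17, limma adjusted p = 0.0190). GCLC, the catalytic subunit, stood at 22.26 and 26.14 FPKM with DMSO and at 36.58, 37.52, 35.43 and 43.90 FPKM with IKE (0.64 ± 0.10, limma adjusted p = 0.00747). Neither overlapped DMSO, and replicates 1 and 4 were again the highest for GCLM. With GSR (0.38), glutathione reductase, they made 3 risen and 0 fallen genes of 12 expressed (median 0.07), of which 0 were called without DMSO replicate 1 and 1 without DMSO replicate 2. Among 17 expressed glutathione peroxidases and transferases GPX1, the cytosolic peroxidase, was the only one called, and it fell by 0.45 (limma adjusted p = 0.00632; highest 0.114, without a DMSO library). GPX4, which reduces lipid peroxides in membranes, stood at 224.05 and 223.72 FPKM with DMSO and 187.43, 227.98, 219.58 and 204.07 FPKM with IKE, with overlap (-0.10, 95% interval -0.27 to 0.08, limma adjusted p = 0.578).

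Several genes known as targets of NRF2 rose, and NFE2L2, its own gene, was not called. NFE2L2 stood at 79.18 and 80.95 FPKM with DMSO and at 78.08, 74.94, 81.73 and 80.96 FPKM with IKE (-0.02, 95% interval -0.14 to 0.10, limma adjusted p = 0.896), and NRF2 is controlled mainly by the stability of the protein. HMOX1, haem oxygenase 1 (chr22:35380361-35394214, plus strand), which frees iron from haem, had the largest change of all expressed genes on the log2(FPKM + 1) scale. It went from 20.16 and 18.89 FPKM to 181.91, 97.26, 86.39 and 182.12 FPKM, a change of 2.67 ± 0.27 that held (limma adjusted p = 0.00082). All IKE libraries were far above DMSO, yet replicates 1 and 4 stood well above replicates 2 and 3. OSGIN1, a growth inhibitor known as a target of NRF2, went from 2.97 and 2.73 FPKM to 9.62, 7.98, 7.07 and 9.49 FPKM (1.3 ± 0.13, limma adjusted p = 0.00082) and held. TXNRD1, thioredoxin reductase, went from 171.31 and 171.77 FPKM to 303.27, 264.92, 256.22 and 319.84 FPKM (0.73 ± 0.09, limma adjusted p = 0.00191) and held. SQSTM1 (0.76), the autophagy receptor p62 that binds KEAP1, held too.

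SRXN1 (0.82), sulfiredoxin, and NQO1 (0.39), a quinone reductase, rose with limma adjusted p-values of 0.00442 and 0.00738. SRXN1 was lost without DMSO replicate 2 (0.0579) and NQO1 without either DMSO library (highest 0.0904). ME1 (0.57), malic enzyme, which makes NADPH, was also lost without either (highest limma adjusted p 0.121). It was the only called gene of 14 expressed genes of the pentose phosphate route and NADPH supply. TXNIP (-0.37), which binds and inhibits thioredoxin, and SELENOW (-0.38), a small selenoprotein, fell and were lost without either DMSO library, with highest limma adjusted p-values of 0.177 and 0.402. SELENOW was lost also without IKE replicates 1, 3 or 4. Of the 21 expressed NRF2 regulators and reductases 6 rose and 0 fell (median 0.205), and 2 rose without either DMSO library. Of the 17 expressed thioredoxin and peroxiredoxin genes 2 rose and 2 fell (median 0.07). Of these 0 fell without either DMSO library and 1 rose without DMSO replicate 2.

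The letters TGACNNNGC, the core of the element that NRF2 binds with a small MAF protein, were common in promoters at large. They were held by 34 of 131 risen genes with a window (26%), 16 of 123 fallen genes (13%), 19.4% of expressed genes and 16.1% of all genes in the table. For TXNRD1, the held thioredoxin gene of this group, the 250 bases before the first start in the table, chr12:104215529-104215778 on the plus strand, hold no exon of GENCODE 29 and carry the match in capitals 99 bases before the start.
TXNRD1: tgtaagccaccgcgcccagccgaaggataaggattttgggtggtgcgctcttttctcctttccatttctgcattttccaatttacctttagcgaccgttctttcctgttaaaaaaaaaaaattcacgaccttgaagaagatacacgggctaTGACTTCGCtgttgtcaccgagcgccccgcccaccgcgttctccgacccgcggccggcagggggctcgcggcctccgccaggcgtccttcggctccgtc

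Iron storage genes rose, whereas iron uptake and export genes were not called. FTL, ferritin light chain, went from 371.55 and 404.31 FPKM to 646.61, 696.96, 677.96 and 650.72 FPKM (0.78 ± 0.06, limma adjusted p = 0.000145). FTH1, the heavy chain, went from 466.29 and 589.07 FPKM to 801.57, 876.58, 910.41 and 885.69 FPKM (0.73 ± 0.09, limma adjusted p = 0.00311). Both held. Ferritin genes have many processed copies in the genome, and the sources used here do not say how reads shared among such copies were counted. TFRC, the transferrin receptor, changed by 0.18 (limma adjusted p = 0.128), and SLC40A1, the iron exporter, lay at 0.18 to 0.39 FPKM and was not among the expressed genes. BLVRB (0.45), biliverdin reductase B, rose but was lost without either DMSO library (highest limma adjusted p 0.109). Of the 30 expressed haem and iron genes 5 rose and 0 fell with a median of 0.01, and 3 rose without either DMSO library.

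Genes known to protect from ferroptosis outside glutathione, and those known to drive it, were nearly all without a call, as were most expressed genes. Of all 11833 expressed genes 2.63% were called. AIFM2 (FSP1), which reduces ubiquinone at the plasma membrane, stood at 10.45 and 8.90 FPKM with DMSO and at 11.98, 12.99, 12.47 and 13.25 FPKM with IKE. All 4 lay above DMSO, and the change of 0.36 (95% interval 0.16 to 0.56) had a limma adjusted p of 0.0691. DHODH (0.29), the mitochondrial enzyme of ubiquinone reduction, and GCH1 (0.04), which starts tetrahydrobiopterin synthesis, had limma adjusted p-values of 0.475 and 0.896. ACSL4, which loads polyunsaturated fatty acids for membrane lipids, stood at 35.40 and 35.33 FPKM with DMSO and 34.54, 33.17, 33.15 and 35.44 FPKM with IKE (-0.05, 95% interval -0.18 to 0.07, limma adjusted p = 0.696). PTGS2, often used as a sign of ferroptosis, lay at 0.08 to 0.14 FPKM and was not among the expressed genes. NF2, the tumour suppressor merlin, rose from 58.52 and 63.88 FPKM to 76.21, 74.52, 76.05 and 79.89 FPKM (0.32 ± 0.06, limma adjusted p = 0.0227), and was lost without either DMSO library or without IKE replicate 4 (highest limma adjusted p 0.26). Of the 22 expressed defence genes 1 rose and 0 fell in limma (median -0.06), with 3 higher and 7 lower at an unadjusted p under 0.05. In 3 of the 22 every IKE library lay above DMSO and in 6 below, against 13.1% and 14.1% of all expressed genes. Of the 17 expressed drivers 0 rose and 0 fell in limma (median 0.05), with 3 higher and 0 lower at an unadjusted p under 0.05.

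**Figure D3:**
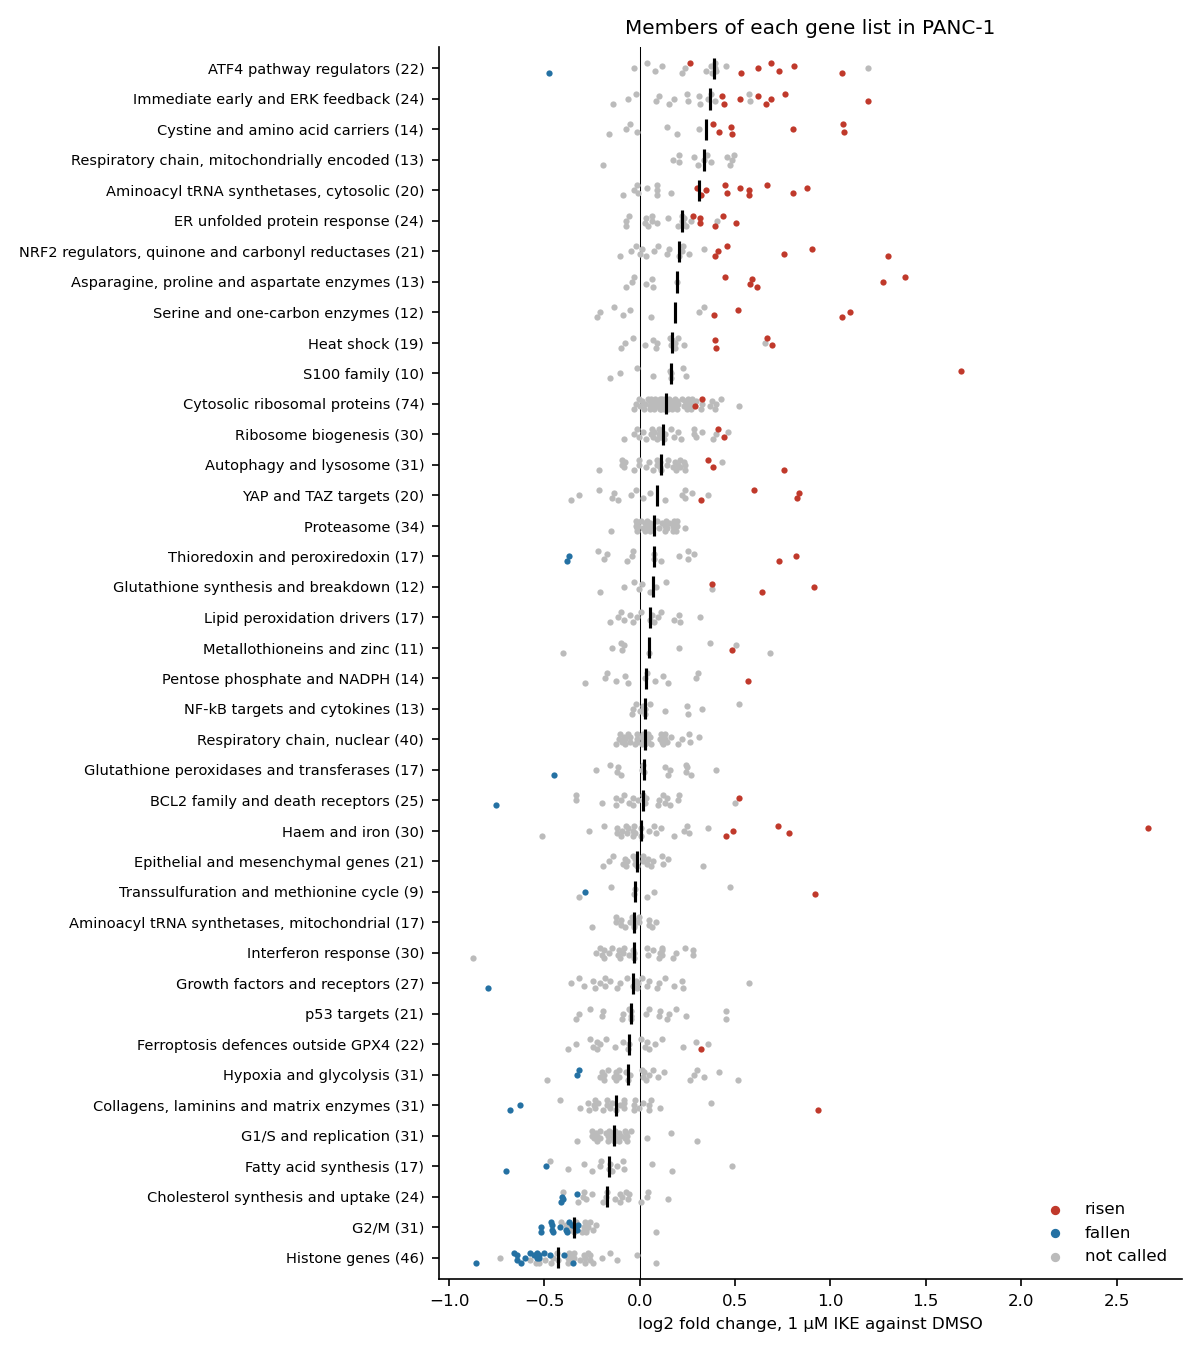
Change with IKE (horizontal axis, log2 scale) of every expressed gene on each list (rows); points are genes, red where risen, blue where fallen and grey where not called, and the black bar is the list's median. Cytosolic synthetases and amino acid carriers lie mostly right of 0, G2/M and histone genes left of 0, and mitochondrial synthetases around 0.

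Lipid synthesis genes that were called all fell. SREBF1, which encodes the regulators SREBP1a and SREBP1c, went from 29.93 and 32.94 FPKM to 19.94, 25.08, 23.26 and 20.31 FPKM (-0.49, limma adjusted p = 0.0202). ELOVL6, which lengthens palmitate, went from 2.98 and 2.68 FPKM to 1.45, 1.67, 0.84 and 1.56 FPKM (-0.70, limma adjusted p = 0.0247). INSIG1, which holds SREBP in the endoplasmic reticulum and is itself a target of it, went from 36.21 and 33.47 FPKM to 27.36, 26.69, 23.55 and 27.14 FPKM (-0.40, limma adjusted p = 0.0233). No IKE library overlapped DMSO in any of them. The sterol enzymes TM7SF2 (-0.41), MSMO1 (-0.41) and FDFT1 (-0.33) also fell. All 6 genes lost their call without either DMSO library, TM7SF2 also without IKE replicates 1 or 4, MSMO1 without 3 or 4 and FDFT1 without 1, 3 or 4, and their highest limma adjusted p-values ran from 0.152 for SREBF1 to 0.278 for FDFT1. Of 24 expressed cholesterol genes 4 fell and 0 rose (median -0.17), with 7 called without IKE replicate 2 and 0 without either DMSO library. Of 17 expressed fatty acid genes 2 fell and 0 rose (median -0.16), with 5 called without IKE replicate 2 and 0 without either DMSO library.

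Chaperones of the endoplasmic reticulum rose modestly. HSPA5 (BiP), the main Hsp70 of that compartment, stood at 142.04 and 145.77 FPKM with DMSO and at 208.02, 213.44, 189.96 and 208.89 FPKM with IKE (0.51 ± 0.06, limma adjusted p = 0.00199), and it held. HERPUD1 (0.44), which serves degradation of misfolded proteins, CRELD2 (0.39), a disulfide isomerase-like protein, and HYOU1 (0.32), another chaperone, rose as well. All were lost without either DMSO library, HYOU1 also without IKE replicates 1 or 3, with highest limma adjusted p-values of 0.145 to 0.22. Of 24 expressed genes of the unfolded protein response 6 rose and 0 fell (median 0.22). The count was 1 without DMSO replicate 1, 1 without DMSO replicate 2 and 3 without IKE replicate 1.

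The element bound by ATF6 with NF-Y, which is CCAAT and CCACG with 9 free bases between them, was looked for on both strands and found in 4 of 131 risen genes with a window (3.05%) and 0 of 123 fallen genes, against 16 of the 9594 expressed genes (0.167%) and 0.0916% of all genes in the table. The 4 genes were HSPA5, CRELD2, HSP90B1 and CALR, all of which encode proteins of the endoplasmic reticulum. HSP90B1, the Hsp90 of that compartment, was named after its promoter was seen; it went from 131.43 and 138.34 FPKM to 161.84, 155.80, 180.72 and 175.43 FPKM (0.32, limma adjusted p = 0.0365). It kept its call only without IKE replicate 2 among the 6 fits (highest limma adjusted p 0.281). Matches are printed in capitals within 30 bases on each gene's strand, where both runs of HSP90B1 lie wholly in exons of GENCODE 29 and those of CRELD2 and CALR in none, with CGTGG first and ATTGG last where the element lies on the opposite strand.
CRELD2, chr22:49918549-49918578, plus strand, 80 bases before the start: cctctCGTGGCGAACTCGGATTGGgccata
HSP90B1, chr12:103930211-103930240, plus strand, 194 bases before: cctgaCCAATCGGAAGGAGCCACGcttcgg
HSP90B1, chr12:103930316-103930345, plus strand, 89 bases before: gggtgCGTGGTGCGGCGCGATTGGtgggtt
CALR, chr19:12938379-12938408, plus strand, 225 bases before: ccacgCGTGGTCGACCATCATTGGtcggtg
The full 250 bases before the start of HSPA5, chr9:125241344-125241593 on the minus strand, hold no exon of GENCODE 29 and show the match 66 bases before the start.
HSPA5: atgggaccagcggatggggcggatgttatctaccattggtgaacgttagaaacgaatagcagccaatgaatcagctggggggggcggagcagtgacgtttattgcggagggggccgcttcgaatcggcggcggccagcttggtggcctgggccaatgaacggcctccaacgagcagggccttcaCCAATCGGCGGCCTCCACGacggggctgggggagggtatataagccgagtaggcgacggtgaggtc

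Heat shock genes of the cytosol rose less steadily. HSPA1A stood at 63.82 and 68.08 FPKM with DMSO and at 123.59, 98.17, 93.35 and 116.53 FPKM with IKE (0.69 ± 0.11, limma adjusted p = 0.00842). HSPA1B (0.66), its near-identical copy, HSPA8 (0.39), the constitutive Hsp70, and BAG3 (0.40), a cochaperone, also rose, and reads of HSPA1A and HSPA1B cannot be fully separated. HSPA1B was lost without DMSO replicate 1 and the other 3 without either DMSO library, with highest limma adjusted p-values of 0.0548 to 0.215. Of 19 expressed genes 4 rose and 0 fell (median 0.17). The count was 0 without DMSO replicate 1 and 1 without DMSO replicate 2.

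Immediate early genes and feedback inhibitors of ERK signalling were higher in the survivors. EGR1, a zinc finger transcription factor, went from 0.67 and 0.63 FPKM to 3.27, 2.99, 1.75 and 3.36 FPKM (1.20 ± 0.16, limma adjusted p = 0.00413). With both DMSO values under 1 FPKM, EGR1 counted as expressed only through its IKE libraries. DUSP6, an ERK phosphatase, went from 4.94 and 4.99 FPKM to 10.05, 9.74, 7.48 and 9.43 FPKM (0.76 ± 0.10, limma adjusted p = 0.00364). JUN (0.66) and FOSL1 (0.62), both parts of the AP-1 factor, rose too, and IKE replicate 3 was the lowest IKE library for EGR1, DUSP6 and JUN. Of 24 expressed genes 8 rose and 0 fell, 17 had every IKE library above DMSO, and the median was 0.37. Among all expressed genes 1.34% rose and 13.1% had every IKE library above DMSO. None of the 8 held: the count was 0 without DMSO replicate 1, 3 without DMSO replicate 2, and 5 without IKE replicate 1 or 4, and the highest limma adjusted p-values ran from 0.0548 for EGR1 and DUSP6 to 0.157 for JUN.

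Some secreted and matrix genes moved in both directions, while the called genes on the list of YAP and TAZ targets, which includes NF2, all rose. CCN1, a matrix-associated signalling protein, went from 95.09 and 88.53 FPKM to 177.30, 151.66, 147.24 and 179.23 FPKM (0.82 ± 0.09, limma adjusted p = 0.000956), and it held. CCN2 (0.83) and AMOTL2 (0.60) rose and did not hold: CCN2 was lost without either DMSO library and without IKE replicates 1 or 4 (highest limma adjusted p 0.166), and AMOTL2 without DMSO replicate 1 (0.0731). Of 20 expressed YAP and TAZ targets 4 rose and 0 fell (median 0.09), with 1 called without DMSO replicate 1, 2 without DMSO replicate 2 and 2 without IKE replicate 4. TNC, tenascin C, fell from 6.36 and 8.15 FPKM to 4.25, 4.51, 4.23 and 4.22 FPKM (-0.63, limma adjusted p = 0.00747). COL7A1, the collagen of anchoring fibrils, fell by 0.68 (limma adjusted p = 0.00436). Both were lost without DMSO replicate 2, with limma adjusted p-values of 0.0898 and 0.0664. They were the 2 fallen genes of 31 expressed matrix genes, of which 1 rose (median -0.13).

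HGF, hepatocyte growth factor, the ligand of MET (chr7:81699008-81770438, minus strand), was the steadiest fall. It stood at 15 and 15.28 FPKM with DMSO and at 8.14, 7.89, 8.65 and 8.54 FPKM with IKE. The groups were tight and far apart, and the fall of 0.80 ± 0.08 held (limma adjusted p = 0.000956). The ratio of the group means in FPKM was 0.549. Of 27 expressed growth factors and receptors HGF was the only one called, and the median was -0.035.

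Of 31 expressed G2/M genes 14 fell, by small amounts, while none of the G1/S and replication genes was called. CDK1, the mitotic kinase, stood at 65.48 and 62.18 FPKM with DMSO and at 47.00, 41.54, 44.72 and 43.64 FPKM with IKE (-0.52, limma adjusted p = 0.00346). TOP2A, topoisomerase II alpha, went from 124.18 and 121.06 FPKM to 87.73, 85.94, 98.45 and 84.55 FPKM (-0.46, limma adjusted p = 0.00656). MKI67, the proliferation marker Ki-67, went from 102.91 and 92.88 FPKM to 73.02, 71.63, 69.11 and 68.62 FPKM (-0.46, limma adjusted p = 0.00822). None of them overlapped DMSO, nor did 29 of the 31 expressed G2/M genes, all 29 lower with IKE. None of these 31 genes rose, and their median was -0.34. Of 31 expressed genes of G1/S and replication 0 rose and 0 fell in limma, with a median of -0.14. At an unadjusted p under 0.05, 2 were higher and 11 lower, and 15 had every IKE library below DMSO and 2 above. For all expressed genes every IKE library lay below DMSO in 14.1% and above in 13.1%, and 1.29% were called as fallen.

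Histone genes of the replication-dependent clusters, whose RNA ends without a poly(A) tail and is kept by rRNA depletion with random priming, fell as well. H1-3, a linker histone, went from 96.44 and 88.32 FPKM to 46.96, 61.77, 55.07 and 40.72 FPKM (-0.86 ± 0.13, limma adjusted p = 0.00747). H3C10 (-0.66), H2AC11 (-0.60) and H2AC20 (-0.53), core histones, fell too, although such copies are alike enough to share reads. Of 46 expressed histone genes 16 fell and 0 rose (median -0.43), and 35 had every IKE library below DMSO. The shares over all expressed genes were 1.29% fallen and 14.1% with every IKE library below. By library the median histone change from the DMSO mean was -0.56 and -0.58 in IKE replicates 1 and 4 and -0.24 and -0.31 in replicates 2 and 3, and for G2/M genes it was -0.37 and -0.42 against -0.311 and -0.315.

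The calls in these lists rest on the DMSO libraries more than the direction does. Without DMSO replicate 1, 0 G2/M and 0 histone genes were called, and without DMSO replicate 2, 2 and 2. Without IKE replicate 4, 9 and 9 were called, without IKE replicate 1, 12 and 9, and without IKE replicate 2, 19 and 23 with 4 of the G1/S list. The highest limma adjusted p over the 6 fits was 0.0671 for CDK1, 0.109 for TOP2A, 0.148 for MKI67, 0.125 for H1-3, 0.137 for H2AC11, 0.157 for H2AC20 and 0.166 for H3C10.

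**Figure D4:**
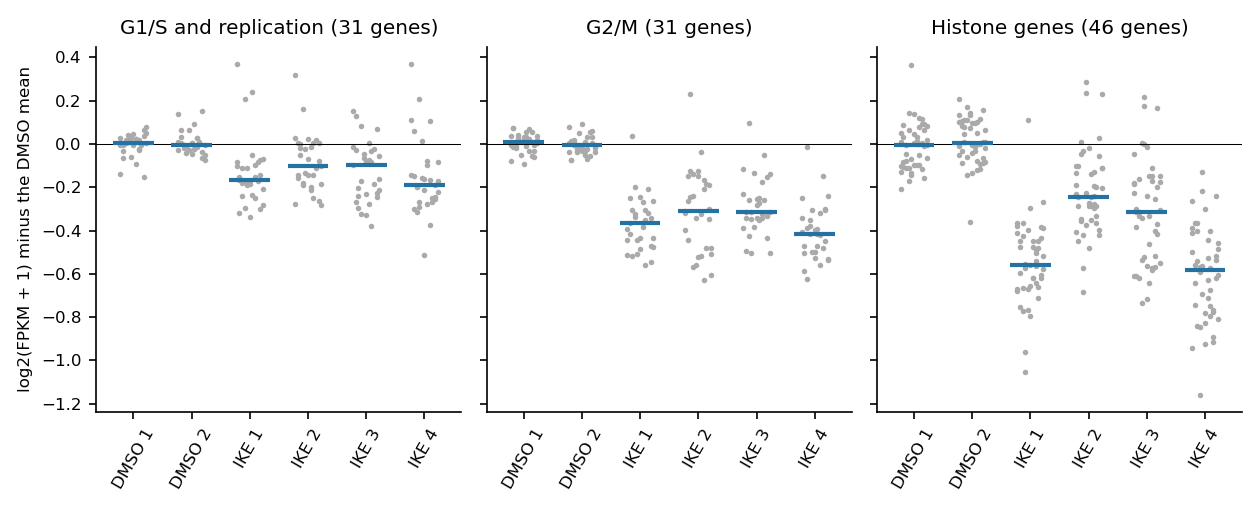
Difference of each G1/S, G2/M and histone gene from its DMSO mean (vertical axis, log2 scale) in each PANC-1 library (horizontal axis); points are genes and blue bars are medians. The medians of the IKE libraries lie under 0 in all 3 lists and lowest for histones in replicates 1 and 4.

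Genes of cell death were mostly not called, as was true of expressed genes at large, of which 2.63% were called. BCL2L1, which encodes the survival protein BCL-xL, went from 47.57 and 45.61 FPKM to 69.73, 65.10, 63.13 and 71.55 FPKM (0.52 ± 0.06, limma adjusted p = 0.00221), and held. TNFSF10, the death ligand TRAIL, fell from 4.26 and 4.56 FPKM to 2.45, 2.55, 2.2 and 1.69 FPKM (-0.76 ± 0.11, limma adjusted p = 0.00555), and was lost without either DMSO library (highest limma adjusted p 0.0664). They were the only 2 called of 25 expressed BCL2 family and death receptor genes (median 0.02). ULBP1, a stress ligand for the NKG2D receptor of natural killer cells, went from 1.09 and 0.94 FPKM to 2.84, 2.46, 2.52 and 2.72 FPKM (0.85 ± 0.09, limma adjusted p = 0.00126), and held. With 1 DMSO value under 1 FPKM, ULBP1 met the rule for expressed genes only with its IKE libraries. RPS6KA2, a ribosomal S6 kinase under ERK, went from 3.10 and 1.68 FPKM to 5.09, 5.96, 6.05 and 5.59 FPKM (1.01 ± 0.15, limma adjusted p = 0.00632), and held, although its DMSO libraries lay far apart.

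Other programmes showed few calls or none. Only 2.63% of all expressed genes were called, so a list without calls is not set apart by that. In limma, 0 of 21 expressed p53 targets, 0 of 13 NF-kB targets and cytokines, 0 of 30 interferon response genes, 0 of 21 epithelial and mesenchymal genes, 0 of 40 nuclear genes of the respiratory chain and 0 of 34 proteasome genes were called, with medians of -0.04, 0.03, -0.03, -0.02, 0.025 and 0.075. At an unadjusted p under 0.05 the genes higher and lower were 2 and 3 of p53 targets, 2 and 0 of NF-kB, 4 and 3 of interferon, 1 and 1 of epithelial and mesenchymal, 4 and 0 of respiratory chain and 11 and 0 of proteasome genes. Of 31 hypoxia and glycolysis genes LDHA (-0.33), lactate dehydrogenase A, and P4HA1 (-0.32), a collagen prolyl hydroxylase, fell, both lost without either DMSO library and P4HA1 also without IKE replicates 1 or 3 (highest limma adjusted p-values 0.229 and 0.306). Of 74 cytosolic ribosomal protein genes 26 had every IKE library above DMSO and 0 below, with a median of 0.14, and RPL24 (0.29) and RPL32 (0.33) were called, lost without either DMSO library or IKE replicate 4 (highest limma adjusted p-values 0.232 and 0.26). Among all expressed genes every IKE library lay above DMSO in 13.1% and below in 14.1%. The IKE libraries all lay above DMSO also in 16 of 30 ribosome biogenesis genes and 14 of 34 proteasome genes, and all below in 0 of either. Of the ribosome biogenesis genes 13 were higher and 0 lower at an unadjusted p under 0.05. Without IKE replicate 1, 9 ribosomal protein genes were called. Of 30 ribosome biogenesis genes MYC (0.44) and WDR43 (0.41) rose (median 0.12), both lost without either DMSO library and WDR43 also without IKE replicates 1 or 4 (highest limma adjusted p-values 0.141 and 0.159). The 13 mitochondrially encoded genes had a median of 0.34 with 0 called in limma, 2 higher at an unadjusted p under 0.05 and 0 without overlap, and their median by library was -0.27 and 0.27 in the DMSO libraries and 0.80 in IKE replicate 3.

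Of 31 autophagy and lysosome genes 3 rose: SQSTM1, MAP1LC3B (0.38), which coats autophagosomes, and CTSL (0.36), a lysosomal protease. The list's median was 0.11, and 1 was called without either DMSO library or without IKE replicate 4. MAP1LC3B was lost in those fits and without IKE replicate 1 (highest limma adjusted p 0.24), and CTSL in those fits (0.232). Of 11 metallothionein and zinc genes MT1E (0.48) rose, lost without either DMSO library or IKE replicate 4 (highest limma adjusted p 0.157).

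IKE libraries were not alike in how far the risen genes moved. Replicates 1 and 4 were the highest pair of IKE values in 57 of the 158 risen genes (36.1%), against 16.8% of all expressed genes, and replicates 2 and 3 in 45 of the 153 fallen genes (29.4%), against 18.2%. The median difference of the risen genes from the DMSO mean was 0.50, 0.47, 0.43 and 0.48 in IKE replicates 1 to 4, and that of the fallen genes was -0.46, -0.40, -0.44 and -0.47. With IKE replicates 1 and 2 alone 105 genes rose and 65 fell, and with replicates 3 and 4 alone 196 rose and 273 fell. Called genes were also more frequent at high levels: in 4 equal groups of genes by DMSO level, from lowest to highest, 23, 27, 31 and 77 genes rose and 28, 17, 31 and 77 fell. The groups were divided at 5.50, 13.34 and 29.08 FPKM.

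CFPAC-1 cells, which had 10 µM IKE in place of 1 µM, give a second view of the same genes, with line and dose varied together so that they cannot be told apart. Of the 158 genes risen in PANC-1, 48 (30.4%) also rose in CFPAC-1, which is 52.7% of the 91 of these expressed genes that rose there. Of the 153 fallen genes 12 (7.84%) also fell in CFPAC-1, which is 30.8% of 39. The change differed between the lines in 31 of the 11833 genes (0.262%) by a test of the difference itself in limma. That count was 13 without DMSO replicate 1, 15 without DMSO replicate 2 and 52 without IKE replicate 2.

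Several genes of the amino acid response changed less in PANC-1. SLC7A5, a carrier of large neutral amino acids, changed by 0.38 in PANC-1 and 1.98 in CFPAC-1, a difference of -1.59 (limma adjusted p = 0.000661), and its rise in PANC-1 was lost without either DMSO library and without IKE replicates 1 or 4 (highest limma adjusted p 0.193). ATF4 changed by 0.22 and 1.3 (difference -1.08, limma adjusted p = 0.00146) and CHAC1 by 0.38 and 1.86 (-1.48, limma adjusted p = 0.0176). ASNS changed by 1.39 and 2.50 (-1.11, limma adjusted p = 0.0082), PSAT1 by 1.1 and 2.47 (-1.37, limma adjusted p = 0.00281), and CBS by 0.92 and 1.89 (-0.97, limma adjusted p = 0.00358). In each of these the change was above 0 in both lines and smaller in PANC-1, where ATF4 and CHAC1 were not called and the CHAC1 libraries overlapped DMSO. PHGDH (-1.18), MTHFD2 (-0.99) and STC2 (-1.08) differed in the same way.

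Other genes had changes of opposite sign in the lines, or a small change in CFPAC-1. DDIT4 changed by -0.47 in PANC-1 and 0.94 in CFPAC-1 (difference -1.42, limma adjusted p = 0.00394). HGF changed by -0.80 and 0.01 (-0.80, limma adjusted p = 0.0215), CCN1 by 0.82 and -0.03 (0.86, limma adjusted p = 0.0211), and NF2 by 0.32 and -0.33 (0.65, limma adjusted p = 0.0176). Within CFPAC-1 the rise of DDIT4 was called (limma adjusted p = 0.00226), and the lower value of NF2 was not (limma adjusted p = 0.0546). The PANC-1 calls of both genes did not hold, as given above. The largest rise in PANC-1, that of HMOX1, was 2.67 against 0.51 in CFPAC-1, and the difference of 2.15 was not called (limma adjusted p = 0.0588). SLC7A11 changed by 1.07 and 0.78 (difference 0.29, limma adjusted p = 0.657) and S100P by 1.68 and 1.64 (0.04, limma adjusted p = 0.969). PCK2 changed by 1.28 in both, FTL by 0.78 and 0.77, and neither difference was called.

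**Figure D5:**
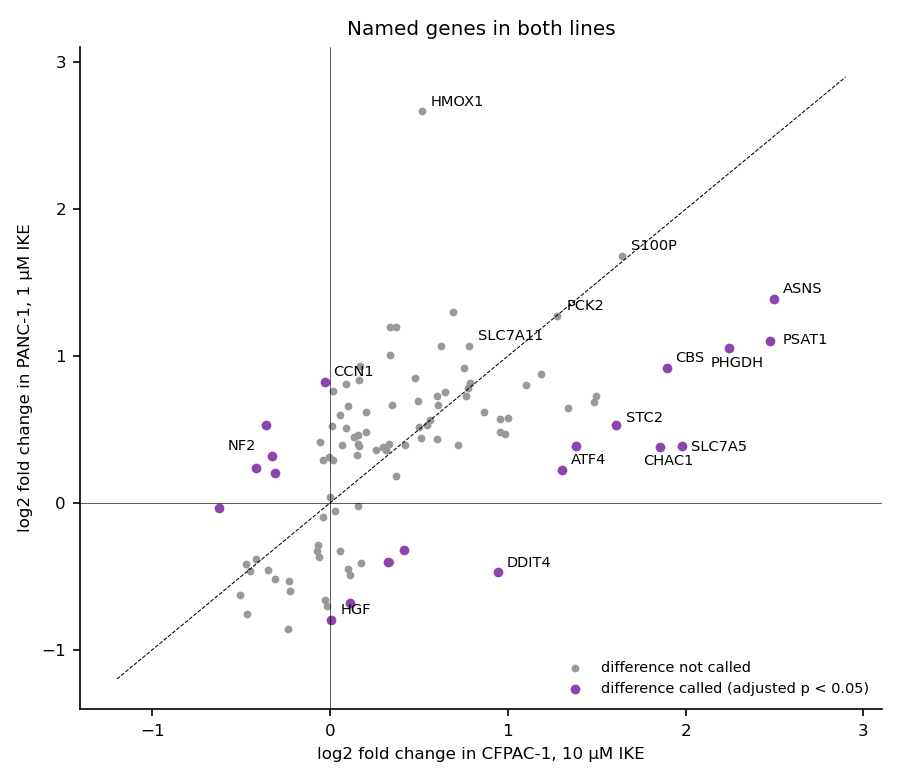
Change with IKE of the named genes in CFPAC-1 (10 µM, horizontal axis) and PANC-1 (1 µM, vertical axis), both on the log2 scale; points are genes, purple where the difference between the lines was called, and the dashed line marks equal change. ASNS, PSAT1 and SLC7A5 lie to the right of that line and HMOX1 well above it.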

How the data were processed

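RNA from Trizol extracts was freed of rRNA and copied from random primers, and UNG digestion removed the second strand, per the labels' protocols. The strand was thus kept, but the sources used here do not say whether counting used it, and values of overlapping genes are uncertain. The table of FPKM values deposited by the authors is on GRCh38 and came from StringTie 1.3.4, HISAT2 2.1.0, Bowtie2 2.2.8, fastp 0.18.0 and DESeq2, per the submitters' processing notes. The sources used here do not state what each tool did. Counts were not used here, low values showed no steps of whole reads, and 9 empty columns were left out.

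The fit took 13077 genes that reached 1 FPKM in 2 or more of the 10 libraries, 1244 of them not among the PANC-1 genes. Values were taken as log2(FPKM + 1). The 10 libraries were fitted with limma 3.58.1 (R 4.3.3), with a mean for each line and treatment and an intensity trend (6 residual and 5.1 prior degrees of freedom). Two-sided p-values were adjusted over all fitted genes (Benjamini-Hochberg), and genes under 0.05 were called. Values after ± are SE, and 95% intervals come from the same fit.

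The members and the 40 gene lists were chosen with earlier results of these data known. Genes were named by rule: a panel of 30 genes, the 12 largest rises and falls that held and had a mean log2 value of at least 1, up to 4 called genes per list and direction by p, and the 6 smallest p-values per direction for the difference between lines. A gene that the rule names is not reported here. NUPR1 and other called genes outside this rule are given only in counts, and HSP90B1, CALR, IARS1, AARS1, SLC1A5, GOT1 and BCAT1 were named from their promoters after values were seen. Other settings tried were the filter, pseudocount, normalization, libraries in the fit, set of genes adjusted over, replicate block, and each library left out. Whether replicate numbers mark pairs is not stated, and the main fit did not treat them as pairs.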

Additional observations from a re-analysis of the deposited data

Results flagged for a closer look

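In 4 of the 107 named genes, 1 of the 4 IKE libraries lay far from the other 3 for its group's range, where chance gives about 1 group in 20. HERPUD1 was highest in IKE replicate 1, at 18.41 FPKM. TNC was highest in IKE replicate 2, at 4.51 FPKM, still under both DMSO values. RASSF8, a RAS-association protein, and MOK, a kinase related to the MAP kinases, were set apart in IKE replicate 4, at 48.16 and 5.86 FPKM.

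The change with IKE differed between PANC-1 (1 µM) and CFPAC-1 (10 µM) in 20 named genes by limma's test of the difference, PANC-1 minus CFPAC-1 on the log2 scale. It was lower in PANC-1 for the amino acid and stress genes SLC7A5 (-1.595), CHAC1 (-1.479), DDIT4 (-1.417), PSAT1 (-1.374), PHGDH (-1.185), ASNS (-1.107), ATF4 (-1.080), STC2 (-1.076), MTHFD2 (-0.994) and CBS (-0.975). It was lower also for HGF (-0.802), COL7A1 (-0.791), P4HA1 (-0.739) and INSIG1 (-0.727), all of which fell in PANC-1. It was higher in PANC-1 for MOK (0.891), CCN1 (0.856), RASSF8 (0.657), NF2 (0.648), PSME2 (0.588), a proteasome activator subunit, and EZR (0.516), ezrin. Line and dose cannot be told apart.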

How the results depend on the processing

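The counts of called genes depended on the libraries and on the spread used. Without 1 library at a time, risen genes ran from 35 to 206, fallen genes from 5 to 296 and differences between the lines from 13 to 52. With the PANC-1 libraries alone 26 rose and 5 fell. IKE replicates 1 and 2 alone gave 105 risen, 65 fallen and 15 differing genes, and replicates 3 and 4 alone 196, 273 and 62. Without a low-value filter 108 rose and 89 fell. Same-numbered libraries correlated at 0.118 and -0.027 in their deviations. With 2 DMSO libraries the DMSO deviations mirror each other, so these values cannot decide whether the numbers mark pairs. The main fit left the libraries unpaired. With the replicate number as a block 96 rose, 53 fell and 14 differed between the lines. Of the 90 named called genes 23 kept direction and call under all 16 settings, 57 lost the call without DMSO replicate 1 and 52 without DMSO replicate 2, and 0 changed sign. Of all expressed genes 25 rose and 1 fell under every setting. Uncalled values near 0 changed sign: NFE2L2 was 0.023 with IKE replicates 3 and 4 alone and ran from -0.038 to 0.003 without 1 library at a time, GCH1 ran from -0.075 to 0.155 without 1 library at a time, and PSME2 was 0.003 with IKE replicates 1 and 2 alone and 0.003 with the block. Counting error is unknown, since the table holds no counts.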
